A study of Mus musculus with 22 samples.

Results

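Expression of the genes that build the ciliary axoneme was examined in lumbar spinal cord of mice with knee joint pain, treated with SAFit2, an inhibitor of the glucocorticoid receptor co-chaperone FKBP51, or with vehicle. The gene set held every row of the deposited table whose symbol begins with Cfap, Rsph, Tekt or Drc and a number, together with 14 named axoneme genes (Spag6l, Spag16, Spag17, Spef2, Hydin, Ccdc39, Ccdc40, Ccdc113, Ak7, Ak9, Zmynd10, Dnai1, Dnai2 and Dynlrb2). This gave 62 of the 17306 genes listed. Of these, 61 were tested among 16765 genes with a log2 CPM (library-scaled read counts, as log2) of at least -1 in 5 libraries. Rsph14, a radial spoke gene, reached that level in 4 libraries, with a median of 1 read, and was not tested.

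The tissue came from 22 wildtype C57BL6J mice aged 12 to 14 weeks, all injected with 1 mg of monoiodoacetate (MIA), which damages joint cartilage, in the knee and collected on day 30. The groups were 5 Early SAFit2 and 6 Early Vehicle mice, dosed on days -3 and 4, and 5 Late SAFit2 and 6 Late Vehicle mice, dosed on days 20 and 27. SAFit2 was given at 100 mg/kg in a vesicular phospholipid gel (VPG), and Vehicle mice received the gel alone. Timing is also the batch in the labels. A change of level from early to late mice cannot be told apart from a batch difference, and treatment was compared within a timing. The sample titles of the Early SAFit2 mice read SAFit1 and their treatment labels SAFit2, and the protocol label gives days 3 and 4 for the early doses. The treatment label and the days of the design text were used. The labels do not give sex, and the study describes the mice of the early and late treatments as male.

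Motile cilia beat by sliding of the microtubule doublets of the axoneme, driven by dynein arms. Radial spokes carry signals from the central pair of microtubules to the doublets, the nexin-dynein regulatory complex links neighbouring doublets and restrains sliding, and tektins and other proteins line the doublets from within. In the spinal cord, motile cilia are borne mainly by the ependymal cells around the central canal, and their genes are switched on by the transcription factors Foxj1 and Rfx2/Rfx3.

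RFX factors are known activators of many ciliary genes, and promoters were therefore searched for their motif. The RFX motif GTTGCC, searched on both strands, was in 48.3% of the promoters of these genes (28 of 58 windows, from 250 bases before to 50 after a RefSeq start, for 51 of the 62 genes). It was in 12.9% of the promoters of all genes tested and in 12.5% of all promoters listed. The forkhead core TGTTTA was in 12.1% against 9.08% and 13.4%. The 150 bases before the start are printed for genes that recur in the results, 4 with a match and, for contrast, Cfap36 without one (RefSeq, GRCm38.p6, 5′ to 3′ in the direction of the gene, capitals mark GTTGCC or its reverse complement).
Hydin, chr8:110266827-110266976, plus strand: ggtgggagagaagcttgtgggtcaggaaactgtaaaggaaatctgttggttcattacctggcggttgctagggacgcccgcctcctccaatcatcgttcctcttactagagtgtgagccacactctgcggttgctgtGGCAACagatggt
Tekt1, chr11:72361883-72362032, minus strand: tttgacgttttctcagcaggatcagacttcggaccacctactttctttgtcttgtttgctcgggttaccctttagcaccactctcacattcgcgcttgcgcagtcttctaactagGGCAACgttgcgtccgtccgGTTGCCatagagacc
Cfap161, chr7:83794840-83794989, minus strand: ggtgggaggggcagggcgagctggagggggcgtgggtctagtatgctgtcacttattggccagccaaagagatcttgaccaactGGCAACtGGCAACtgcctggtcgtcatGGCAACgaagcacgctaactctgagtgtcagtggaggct
Drc1, chr5:30281243-30281392, plus strand: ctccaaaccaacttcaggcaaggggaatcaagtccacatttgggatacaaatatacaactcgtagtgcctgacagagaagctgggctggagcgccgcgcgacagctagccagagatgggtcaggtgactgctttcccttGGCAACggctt
Cfap36, chr11:29247273-29247422, minus strand: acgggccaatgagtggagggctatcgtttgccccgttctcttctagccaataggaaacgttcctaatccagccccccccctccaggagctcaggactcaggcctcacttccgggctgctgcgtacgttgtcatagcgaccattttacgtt
A match is a description of the letters and not a binding site. Other genes that recur in the results and held no match in the same 150 bases include Drc7, Spag6l, Spag17, Tekt4, Ak7, Cfap45, Cfap52, Cfap43, Cfap126, Rsph9, Cfap69 and Tekt5. Another start of Tekt1 held none either. Cfap20, which like Cfap36 is expressed in many cell types, held a match. Among the tested genes with a promoter, 11 of 22 that were lower in the mean effect described later, and 15 of the other 28, held the RFX motif.

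Most of the axoneme genes were scarce in this tissue. Their median level was 0.85 log2 CPM, against 3.97 for all genes tested, and 24 of the 62 had a median of under 20 reads a library. In 20 genes at least 1 library held 0 reads, which the table lists at the common floor of -3.15. Fold changes are differences between group means of log2 CPM. In such genes their size depends on that floor, and single mice at 0 reads can make them too small or too large. Per kilobase of transcript, Cfap36 (6.57 log2 CPM per kb), Cfap418 (4.20) and Cfap298 (4.16) stood highest and Spag17 (-4.70) lowest. A subset of 5 Cfap genes (Cfap20, Cfap36, Cfap97, Cfap410 and Cfap418), known to be expressed in many cell types, lay between 4.39 and 7.31 log2 CPM. In bulk tissue, fewer ciliated cells and less RNA in each such cell cannot be told apart.

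Libraries held 11352989 to 24433349 reads on genes, and no pair was identical. The Late SAFit2 mice 3 and 5 stood apart by skeletal muscle RNA, with a summed CPM of 196 and 143 over 5 muscle genes (Acta1, Ckm, Myh4, Tnnt3 and Mylpf), against 1.63 to 8.92 in the other 20 libraries. Lumbar Hox genes (Hoxa10, Hoxc9, Hoxc10, Hoxd9 and Hoxd10) were present in every library, with a summed CPM of 223 to 343. Where single late calls were checked without these libraries, those lost are named. Nominal late counts are over all libraries and include calls lost without both: 15 axoneme genes were lower with them and 12 without.

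Averaged over the 62 genes, Early SAFit2 mice stood at 0.59, 0.79, 0.58, 0.70 and 0.87 log2 CPM. Early Vehicle mice ranged from 0.96 to 2.02 with a median of 1.30, so that the groups did not overlap. Late SAFit2 mice stood at 0.90, 0.52, 0.66, 1.54 and 1.25, and Late Vehicle mice ranged from 0.75 to 2.04 with a median of 1.53. The late groups overlapped, 3 of the 5 SAFit2 mice lying within the Vehicle range. The SD was 0.12 in Early SAFit2 (n = 5), against 0.45 in Early Vehicle (n = 6), 0.42 in Late SAFit2 (n = 5) and 0.48 in Late Vehicle mice (n = 6).

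Markers of ependymal cells that are not part of the cilium (Rarres2, Tmem212, Mia, Calml4 and Hdc) lay lower in the same comparisons. At a nominal p under 0.05, 2 of 5 were lower early, against 1.54% of all genes tested, and 2 of 5 late, against 19%. Without both libraries with muscle RNA, Rarres2 was still lower late, and 14% of all genes were. Mia (nominal p in limma = 0.0524), Tmem212 (0.293), Hdc (0.346) and Calml4 (0.82) did not pass there. The summed CPM of these markers was 7.93 to 14.5 in Early SAFit2 against 10.6 to 20.3 in Early Vehicle mice, and 6.06 to 22.9 in Late SAFit2 against 10.1 to 25.7 in Late Vehicle mice. All 5 lay lower with early SAFit2 and 4 of 5 with late SAFit2, with median log2 fold changes of -0.74 and -0.56. Tmem212 was at 0 reads in at least 3 of the 5 Early SAFit2 mice (median -3.15 log2 CPM), against a median of 0.19 in Early Vehicle mice. The study describes the sequenced tissue as dorsal horn quadrants of the injured side, its methods as lumbar quadrants and the labels as L4-L6 spinal cord. How much of the central canal a sample held is not given in the sources used here. The part of ependymal cells in the differences described here was not tested.

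**Figure D1:**
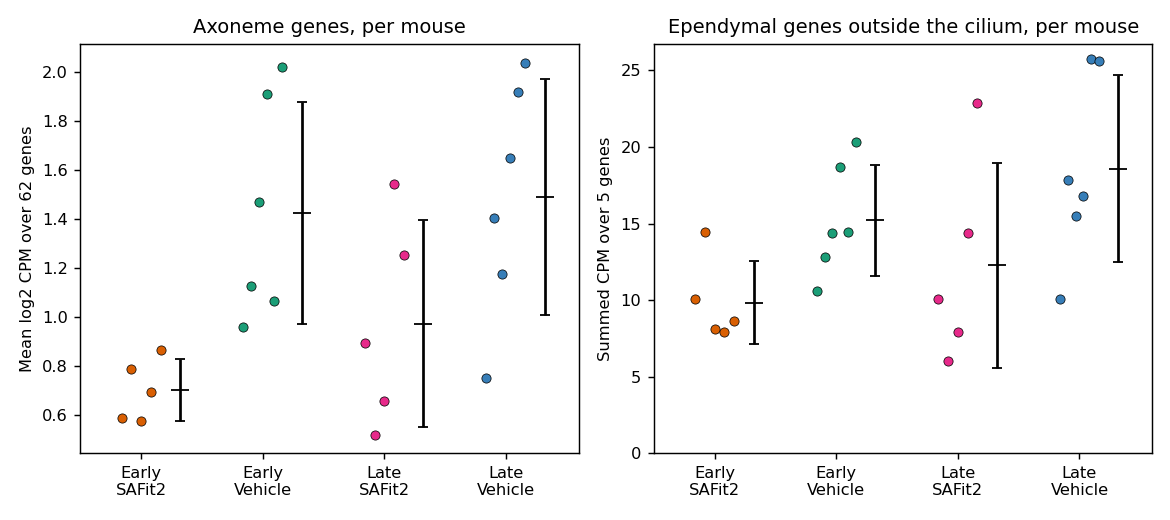
Mean log2 CPM over the 62 axoneme genes (left) and summed CPM of 5 ependymal genes outside the cilium (right) for each of the 22 mice, with group mean and SD beside the points. The 5 Early SAFit2 mice lie between 0.58 and 0.87 on the left, below every Early Vehicle mouse, while the late groups overlap.

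The early comparison asked what remained on day 30 of a treatment given around the injury. In limma, 18 of the 61 genes were lower in Early SAFit2 than in Early Vehicle mice at a nominal p under 0.05 and 0 were higher, a share of 29.5%, whereas 1.54% of all genes tested were lower, 0.942% higher and 2.48% differed in either direction. No gene passed Benjamini-Hochberg adjustment over all genes (lowest adjusted p in limma = 0.665), whereas 4 of the 61 did when libraries were weighted by their quality. That weighting raised calls over all genes too, to 4.76% lower at a nominal p. Without weights, the median log2 fold change of the 61 genes was -0.67, against 0.01 over all genes, and 53 of them lay below 0. In 5 genes the groups did not overlap, each time with SAFit2 lower (8.2%), against 0.268% of all genes lower and 0.0835% higher without overlap. Of the 54 genes that reached the filter in 12 libraries or more, and so could not have passed it through 1 group, 17 were lower.

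The central pair showed a shared direction: all 12 genes lay below 0, with a median of -0.94, and 3 fell at a nominal p under 0.05 (Spag17, Spag6l and Cfap65). For Spag6l, which encodes a scaffold of the central apparatus, Early SAFit2 mice had 0.30, -0.18, 0.91, 0.75 and 0.74 log2 CPM, and Early Vehicle mice 0.85 to 2.33 with a median of 1.63. Only the highest SAFit2 mouse lay within the Vehicle range, and the log2 fold change was -1.04 ± 0.36 (SE, exact permutation p = 0.011). Spag17, another central pair protein, was at 0 reads in 3 of 5 Early SAFit2 mice and at 1 and 3 reads in the others, against 2 to 26 reads in Early Vehicle mice (log2 fold change -2.34 ± 0.65, exact permutation p = 0.0087). The best expressed central pair genes, Cfap69 at -0.40 ± 0.21 and Cfap74 at -0.16 ± 0.22, did not pass the threshold.

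Of the radial spoke genes, 9 were tested. Of these 9 tested genes 4 fell (Rsph1, Rsph4a, Rsph9 and Cfap91), and the median was -0.62. Rsph1, a spoke head protein, stood at -0.37, 1.15, -0.96, 1.08 and 0.30 log2 CPM in Early SAFit2 mice and at 0.75 to 2.41, with a median of 2.14, in Early Vehicle mice. The upper 2 SAFit2 mice lay above the lowest Vehicle mouse and below the others, and the log2 fold change was -1.64 ± 0.45 (exact permutation p = 0.013). Rsph9, a spoke head protein named here because its groups did not overlap, was between 2.00 and 2.40 in Early SAFit2 and between 2.69 and 3.02 in Early Vehicle mice. Its change of -0.62 ± 0.20 rested on 77 to 200 reads a mouse, and its exact permutation p of 0.0022 is the smallest that 462 splits of 11 mice allow. Cfap91, at the base of the spokes and also without overlap, changed by -1.81 ± 0.57. The stalk genes Rsph3a and Rsph3b stood at 0.03 ± 0.12 and -0.10 ± 0.13. They are near-identical copies, so that reads may have been divided between them by the counting.

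The dynein regulatory complex and the adjoining ruler proteins Ccdc39 and Ccdc40 had 6 of 6 genes below 0, with a median of -0.53, and 1 fell. This was Drc7, a linker subunit, with -2.03, -0.45, -0.38, 0.01 and -0.36 log2 CPM in Early SAFit2 mice and -0.61 to 2.40 (median 0.66) in Early Vehicle mice. All SAFit2 mice lay below the Vehicle median, and the log2 fold change was -1.48 ± 0.57 (exact permutation p = 0.039). Drc1, which anchors the complex to the doublet, and Drc3 stood at -0.37 ± 0.29 and -0.26 ± 0.22, not past the threshold.

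Of the tektins, 2 of 4 fell. Tekt4 stood at -3.15, -1.43, -0.82, -1.42 and -1.16 log2 CPM in Early SAFit2 mice, from 0 to 9 reads, and at -0.62 to 0.88 (median 0.10) in Early Vehicle mice, from 10 to 30 reads. The groups did not overlap, and the log2 fold change was -1.64 ± 0.41 (exact permutation p = 0.0022). Tekt1 fell by 1.04 on the log2 scale (SE 0.43, exact permutation p = 0.019). Tekt5, the tektin with the highest level, stood at 0.10 ± 0.14.

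Proteins of the doublet lumen had the lowest median of the structural classes, -1.11 over 6 genes, all of them below 0 and 3 of them past the threshold. Cfap45 stood at 1.02, -0.26, 0.87, 0.15 and 0.36 log2 CPM in Early SAFit2 mice and at 1.03 to 3.08 (median 1.34) in Early Vehicle mice, without overlap (log2 fold change -1.25 ± 0.36, exact permutation p = 0.0043). Cfap52 changed by -2.12 ± 0.56 and Cfap53 by -1.80 ± 0.62, both from few reads: 1 to 4 and 0 to 12 in Early SAFit2 mice, and 2 to 51 and 2 to 32 in Early Vehicle mice. Ak7, an adenylate kinase of motile cilia, likewise did not overlap between groups, with 0.45, 0.43, -0.59, -0.33 and -0.70 log2 CPM in Early SAFit2 mice and 0.47 to 2.71 (median 1.34) in Early Vehicle mice (log2 fold change -1.58 ± 0.59). Its relative Ak9 stood at -0.25 ± 0.66.

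Dynein arm, tether and assembly genes had 11 of 11 values below 0, with a median of -0.61, and 3 fell (Cfap43, Dnai1 and Dynlrb2). Cfap43, a subunit of the tether that holds the inner arm, changed by -1.08 ± 0.37, whereas the assembly genes Cfap298 and Cfap300 stood at -0.13 ± 0.12 and -0.23 ± 0.24. Cfap73, of the same class, was at 0 reads in all 5 Early SAFit2 mice and at 0 to 14 reads in Early Vehicle mice. These are too few for a fold change, and with Cfap73 set at the bound that 3 reads a library give, the early median of the 61 genes was -0.62. Cfap73 is still counted below among the genes lower late, from 0 to 5 reads in Late SAFit2 mice, and in the mean effect. The broadly expressed Cfap genes had a median of -0.10, with 0 of 5 past the threshold and values from -0.15 for Cfap36 to 0.02 for Cfap97. Of the 6 genes placed in no structure 1 fell (Cfap58), and their median was 0.04.

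**Figure D2:**
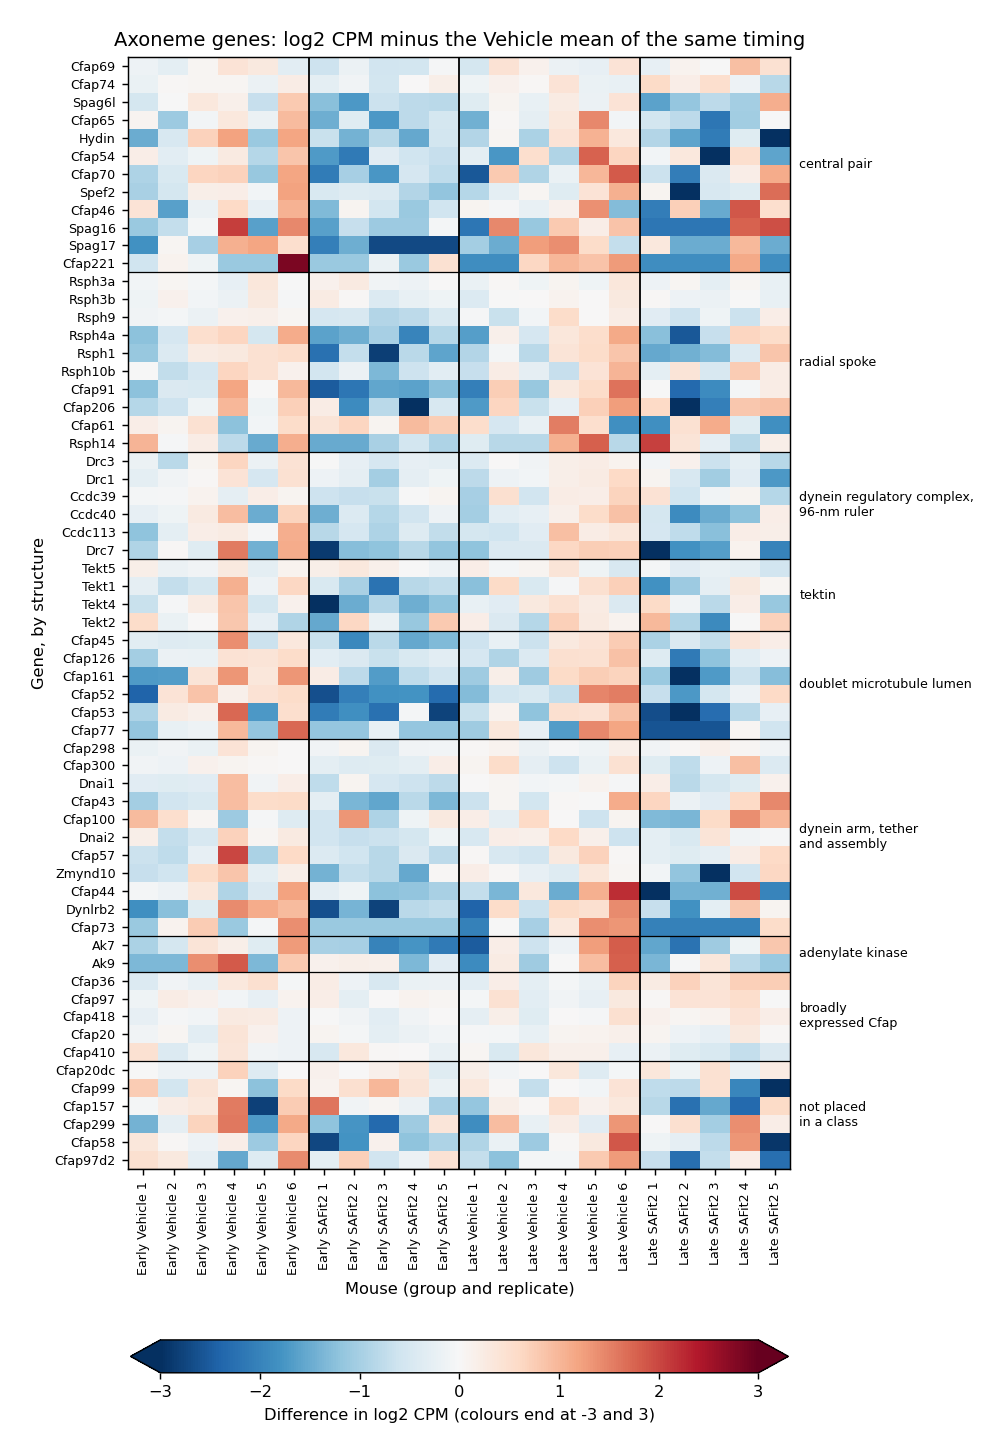
Log2 CPM of each of the 62 axoneme genes (rows, by structure) in each of the 22 mice (columns) minus the Vehicle mean of the same timing, blue below and red above that mean. The Early SAFit2 columns are blue across most rows outside the broadly expressed genes (53 of 61 early fold changes below 0), while in Late SAFit2 mice 1 to 3 are mostly blue and mice 4 and 5 mixed.

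The late comparison asked what SAFit2 changed when given once pain was established. Here 3 of the 61 genes passed the adjusted threshold (adjusted p under 0.05 and 1.2-fold in limma), with Hydin and Drc7 lower and Cfap36 higher in Late SAFit2 mice. That is 4.92%, against 12.1% of all genes tested, 6.72% lower and 5.33% higher. At a nominal p under 0.05, 15 were lower and 1 was higher (26.2% in either direction, against 34.5% of all genes, 24.6% lower, against 19%, and 1.64% higher, against 15.6%). The median log2 fold change was -0.47, against -0.05 over all genes, and 49 of 61 lay below 0. In 0 axoneme genes were the late groups without overlap, against 1.71% of all genes (0.859% lower, 0.853% higher). The adjusted calls were not stable: leaving out single mice gave 0 to 6 genes, leaving out both libraries with muscle RNA gave 0, and 0 passed when a trend of each library with GC content and gene length was removed. Over all genes, the lowest adjusted p in limma was 0.0481 without both muscle libraries and 0.0918 with that trend removed, where no gene passed. In the corrected fit 12 genes were lower and 1 higher at a nominal p under 0.05, 9.95% of all genes were lower, and the median was -0.56.

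Hydin, a giant protein of a central pair projection (chr8:110266968-110610253, GRCm38.p6), stood at 0.35, -0.36, -0.88, 0.86 and -2.15 log2 CPM in Late SAFit2 mice, from 1 to 21 reads. Late Vehicle mice ranged from 0.28 to 2.27 with a median of 1.41, from 19 to 81 reads. The upper 2 SAFit2 mice lay within the Vehicle range and the others below it, and the log2 fold change was -1.66 ± 0.53 (adjusted p in limma = 0.045, exact permutation p = 0.022). The lowest value came from a library with skeletal muscle RNA, and without both such libraries the change was -0.94, past neither threshold (nominal p in limma = 0.103).

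Drc7 (chr8:95055103-95078141) stood at -2.16, -0.36, -0.21, 1.54 and -0.57 log2 CPM in Late SAFit2 and at 0.24 to 2.18 (median 1.55) in Late Vehicle mice. A single SAFit2 mouse lay within the Vehicle range. The log2 fold change was -1.80 ± 0.57 (adjusted p in limma = 0.045, exact permutation p = 0.022), close in size to its early change of -1.48, and the early and late effects were not shown to differ (exact permutation p = 0.78 for a difference of 0.32 ± 0.81). Without both libraries with muscle RNA the late change was -1.77 (adjusted p in limma = 0.139).

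Cfap36 (chr11:29218918-29247317), whose product binds the small GTPase Arl3, was the only axoneme gene past the adjusted threshold that was higher with SAFit2. Late SAFit2 mice stood at 7.32, 7.77, 7.47, 7.80 and 7.83 log2 CPM and Late Vehicle mice at 6.76 to 7.74 (median 6.95), a log2 fold change of 0.56 ± 0.17 (adjusted p in limma = 0.041, exact permutation p = 0.017). Without both libraries with muscle RNA it was 0.55 (adjusted p in limma = 0.133). This was also the most abundant axoneme gene, with 1906 to 4142 reads a library. Of the other broadly expressed Cfap genes, Cfap97 stood at 0.28 ± 0.14 and Cfap410 at -0.43, neither past the adjusted threshold.

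In the doublet lumen all 6 genes lay below 0 in late mice too, with a median of -1.21. At a nominal p under 0.05, 4 of them were lower, against 19% of all genes tested. Cfap53 stood at -2.58, -3.15, -2.18, -0.71 and -0.15 log2 CPM in Late SAFit2 mice and at -1.12 to 0.97 (median 0.37) in Late Vehicle mice, with a log2 fold change of -1.85 ± 0.62 (adjusted p in limma = 0.051, exact permutation p = 0.022). Cfap161 changed by -1.59 ± 0.56 and Cfap126, a lumen protein also known for basal body positioning, by -0.84 ± 0.37, whereas Cfap45 and Cfap52 stood at -0.31 ± 0.36 and -0.50 ± 0.56. Thus Cfap53 was lower at both timings, while Cfap45 and Cfap52 were lower early and Cfap161, Cfap126 and Cfap77 late. The difference between early and late effects did not pass in any of these genes.

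The central pair had a late median of -0.60 with 2 of 12 genes lower, the regulatory complex and ruler -0.56 with 3 of 6, the tektins -0.27 with 1 of 4, the radial spokes -0.50 with 0 of 9, and the dynein arm, tether and assembly genes -0.16 with 1 of 11 (Cfap73, from few reads). These counts are at a nominal p, where 19% of all genes tested were lower late. Drc1 had a log2 fold change of -0.70 ± 0.29 and Tekt5 of -0.30 ± 0.14, lower at a nominal p, with adjusted p in limma of 0.087 and 0.141. Without both libraries with muscle RNA these were -0.24 and -0.23 and no longer passed. Rsph1 (-0.78 ± 0.45), Spag6l (-0.70 ± 0.36), Spag17 (-0.63 ± 0.65), Tekt1 (-0.57 ± 0.43) and Ak7 (-0.84 ± 0.59), which had fallen in early mice, were below 0 without passing. Of the genes of no assigned structure 3 were lower (Cfap97d2, Cfap99 and Cfap157), Cfap99 with a log2 fold change of -1.30 ± 0.50 and values from -3.15 to 0.75 in Late SAFit2 mice.

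**Figure D3:**
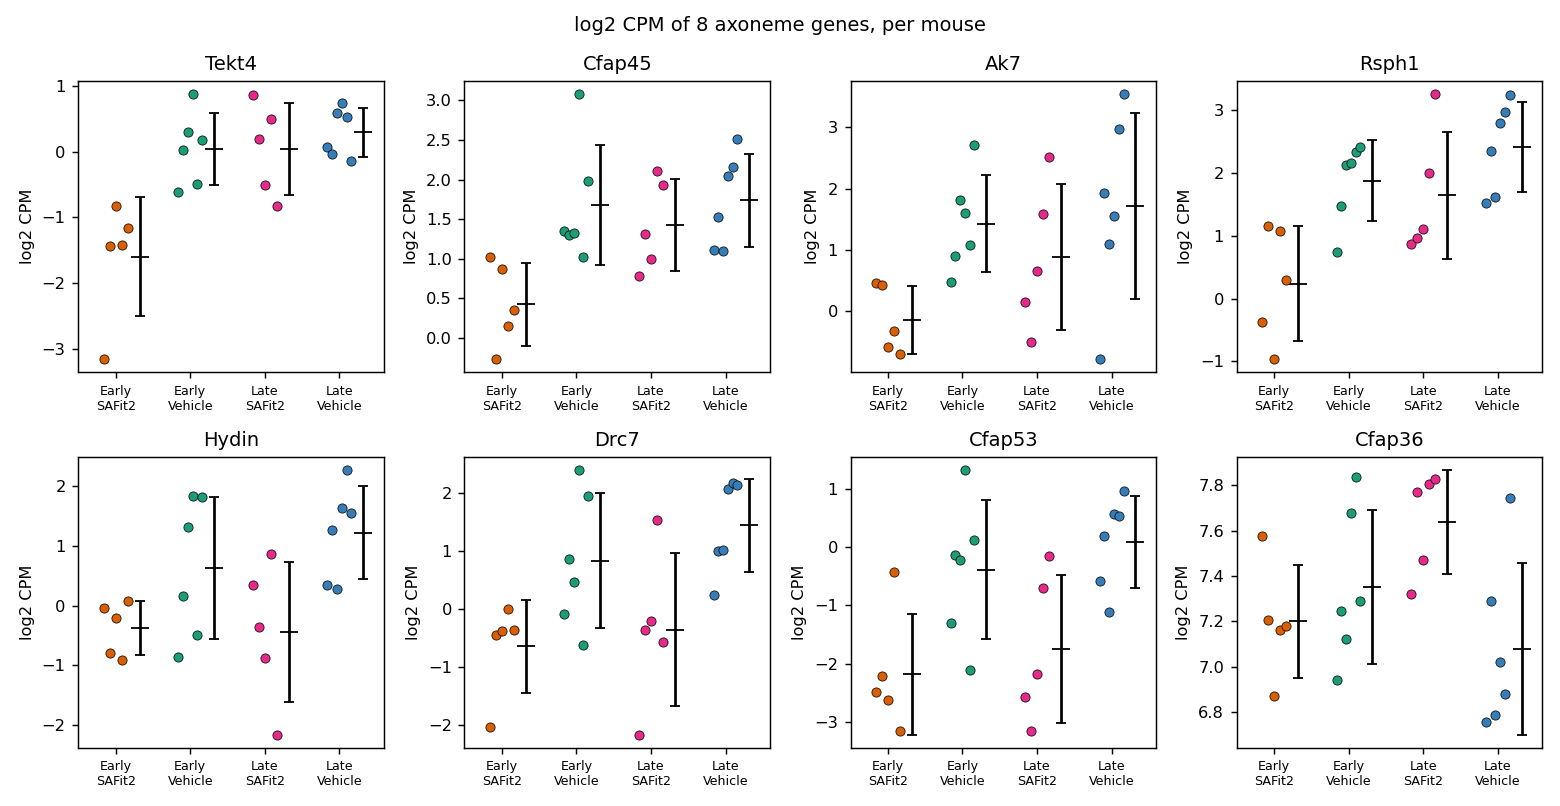
Log2 CPM of 8 axoneme genes in each mouse of the 4 groups, with the group mean and SD beside the points. Tekt4, Cfap45 and Ak7 separate the early groups without overlap, Drc7 and Cfap53 are lower with SAFit2 at both timings with overlap, Hydin passed in late mice, and Cfap36 is higher in Late SAFit2 mice by 0.56 on the log2 scale.

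Averaging the early and late effects gave the most nominal calls. At a nominal p under 0.05, 28 of the 61 genes were lower with SAFit2 and 0 were higher, or 45.9%, against 7.18% of all genes lower, 6.03% higher and 13.2% in either direction. None passed adjustment (lowest adjusted p in limma over all genes = 0.301, which Cfap53, Drc7 and Rsph1 reached), whereas 28 did with library quality weights. In the weighted fit 20.7% of all genes were lower at a nominal p, so that calls rose beyond the axoneme genes. Without weights the median was -0.56 and 55 genes lay below 0. All 6 doublet lumen genes were lower, as were 4 of 6 of the regulatory complex and ruler, 5 of 12 of the central pair, 4 of 9 of the radial spokes and 2 of 4 tektins. Log2 fold changes were -1.82 ± 0.44 for Cfap53, -1.64 ± 0.40 for Drc7, -1.33 ± 0.37 for Hydin and -1.21 ± 0.32 for Rsph1, with exact permutation p of 0.0012, 0.0014, 0.0039 and 0.0039. Several genes of high level had values close to 0, with -0.04 ± 0.09 for Rsph3a, -0.10 ± 0.10 for Tekt5 and -0.06 ± 0.09 for Cfap298.

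The early and late effects were then set against each other. At a nominal p under 0.05 the effects differed in 5 of 61 genes (8.2%), against 24.9% of all genes tested (10.9% lower, 14% higher), and 0 differed after adjustment (lowest adjusted p in limma over all genes = 0.12). The share lies below that of all genes. Tekt4, Cfap43, Cfap36 and Cfap69 had a lower early than late effect, and Cfap99 a higher one. For Tekt4 the early effect was -1.64 and the late effect -0.25, a difference of -1.39 ± 0.58 (exact permutation p = 0.052). For Cfap43 the effects were -1.08 and 0.43, a difference of -1.51 ± 0.52 (exact permutation p = 0.019). The remaining pairs were -0.15 and 0.56 for Cfap36, -0.40 and 0.24 for Cfap69, and 0.35 and -1.30 for Cfap99. Without both libraries with muscle RNA the difference for Cfap69 was -0.65 and no longer passed (nominal p in limma = 0.0578).

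**Figure D4:**
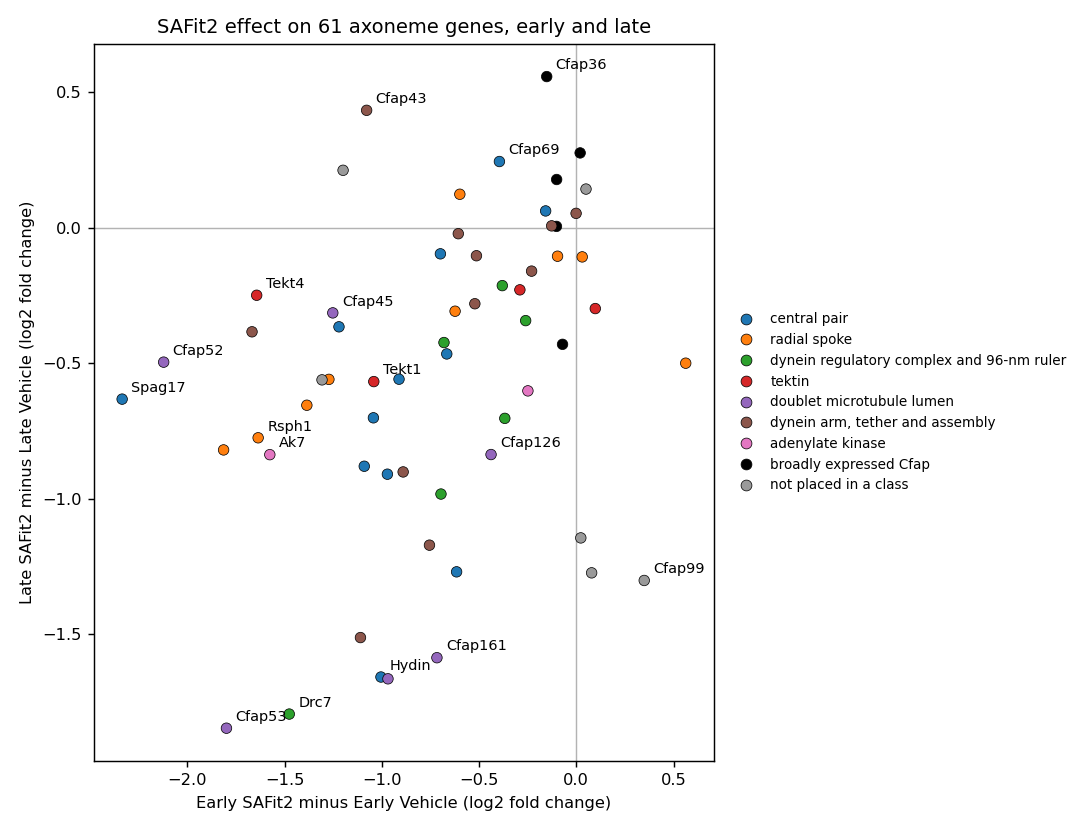
Early against late SAFit2 effect (log2 fold change from Vehicle) of the 61 tested axoneme genes, each point a gene coloured by structure. Most points lie to the lower left (53 below 0 early, 49 below 0 late), the doublet lumen genes are spread along both axes, and the broadly expressed genes lie near 0 early.

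Within groups the axoneme genes varied together only in part. After removal of group means, the correlation over 22 mice of a gene with the mean of the other genes of the set was above 0.5 for 29 of 62 and at or below 0 for 7, with a median of 0.46 and a range from -0.35 (Cfap61) to 0.88 (Rsph4a). All genes of a mouse share 1 library, and these values are a description.

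Other genes of motile cilia gave a mixed picture. Of 15 axonemal dynein heavy chains, the motors of the arms, 4 were lower and 0 higher early at a nominal p under 0.05, and 2 were lower and 2 higher late, with medians of -0.51 and -0.27. For these and the lists below, the shares of all genes tested were 1.54% lower early, and 19% lower and 15.6% higher late. Dnah12 was lower early without overlap (-3.05 ± 0.62), from -3.15 to -2.23 log2 CPM against -1.48 to 1.42, while Dnah1, the best expressed, stood at -0.23 ± 0.29. The heavy chains lower late were Dnah11 (-2.23 ± 0.70, past the adjusted threshold, adjusted p in limma = 0.044) and Dnah10 (-1.02 ± 0.48). Early, Dnah11 stood at -1.82 ± 0.70. Without both libraries with muscle RNA, Dnah11 did not pass adjustment late (adjusted p in limma = 0.0755). There Dnah10 lost its nominal call (nominal p in limma = 0.0567) and Dnah2 was lower (0.00212). Of 7 further regulatory complex subunits 2 were lower early, and late 1 was lower (Iqcd, -1.19 ± 0.35) and 1 higher (Efcab2, 0.49), and of 9 dynein assembly factors 0 were lower early and 2 late (Dnaaf5, -0.86 ± 0.24), with Spag1 at 0.06. Of 6 tested transcription factors of ciliogenesis 0 passed a nominal p early and 2 were lower late (Foxj1 and Rfx2), with medians of -0.31 and 0.06. Foxj1 stood at 0.02 ± 0.19 in early mice and fell in late mice by 0.77 on the log2 scale (adjusted p in limma = 0.032, exact permutation p = 0.0087). Rfx2 stood at -0.52 ± 0.30 early and was lower late, at -0.77 ± 0.30 (adjusted p in limma = 0.077), and at -0.40 without both libraries with muscle RNA, not past a nominal p. Rfx3 stood at -0.15 and 0.18, and Gmnc, which acts early in multiciliated cells, at -0.77 and 0.54. Rarres2, the best expressed ependymal marker, stood at -0.35 ± 0.28 early and was lower late, at -0.86 ± 0.28 (adjusted p in limma = 0.046). Without both libraries with muscle RNA the late values were -0.81 for Foxj1, -1.13 for Rarres2 and -0.53 for Dnaaf5, at a nominal p under 0.05 and not past adjustment (adjusted p in limma of 0.112, 0.0992 and 0.178), as was Iqcd (0.123).

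Markers of other cells lay nearer to 0 in early mice. Each list held 5 tested genes (3 for choroid plexus), of which only some are named in brackets. Their medians were -0.13 for astrocyte (Slc1a2, Aqp4), -0.14 for microglia (Csf1r, P2ry12), 0.10 for neuron (Snap25, Slc32a1) and -0.01 for lumbar Hox (Hoxc10, Hoxc9). The choroid plexus list (Kl, Clic6) stood at -0.10 and the meninges and fibroblast list (Ptgds) at -0.29. At a nominal p 1 astrocyte gene (Gfap, -0.30) and 1 choroid plexus gene (Folr1, -1.56) were lower early, and 0 of the others. The share of all genes lower early was 1.54%. In late mice the medians of these lists lay between -0.84 (choroid plexus) and 0.23 (astrocyte), and that of the muscle list (Acta1, Tnnt3) at 2.33. At a nominal p 2 astrocyte genes were lower and 1 higher late, 1 neuron gene lower and 2 higher, 1 microglia gene higher, 1 of 3 choroid plexus genes lower, and 0 lumbar Hox, meninges and fibroblast genes. Among all genes tested, 19% were lower and 15.6% higher late. Without both libraries with muscle RNA, no astrocyte gene was lower late at a nominal p (in limma 0.216 for Gfap, 0.0969 for Aldh1l1), and Aqp4 and Slc1a2 were higher. Snap25 was still higher and Slc32a1 lower, while Slc17a6 (nominal p in limma = 0.054) and the microglia genes did not pass. Clic6 and Folr1 were lower, as was Col1a1 of the meninges and fibroblast list, against 14% of all genes. Slc32a1, the vesicular transporter of inhibitory neurons (-0.55 ± 0.18, adjusted p in limma = 0.046), and Clic6 (-0.92 ± 0.31, adjusted p in limma = 0.049, groups without overlap) passed the adjusted threshold late, and did not without both libraries with muscle RNA (adjusted p in limma of 0.139 and 0.146). The part of these cell types in the axoneme differences was not tested.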

How the data were processed

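RNA from lumbar spinal cord of 22 mice was sequenced. Per the labels, libraries were strand-specific, reads were trimmed with Trimmomatic and aligned with HISAT2 to mm10, and the methods name featureCounts and trimmed mean of M-values scaling (edgeR). The authors deposited log2 CPM values. Read counts recovered from them came out whole for 100.0% of values (tolerance 0.02 reads), giving 11352989 to 24433349 reads per library, so that low genes carry the most counting error.

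The 16765 genes that reached -1 log2 CPM in 5 libraries were fitted with limma 3.58.1 (R 4.3.3), with a mean for each group and a variance trend, and p-values were adjusted over all of them. Calls used an adjusted p under 0.05 and 1.2-fold for the late effect and, for the mean effect, an unadjusted p under 0.05, as in the study. A nominal p was also used for the early effect, where the study used the adjusted one, and for the early minus late effect. Exact permutation tests were two-sided, over 462 splits within a timing and 213444 splits within both. The labels do not say that the mice of a group are independent of cage or litter. The study states that mice were allocated by block randomisation with treatments balanced within cages, and cage was not in the fits. Structures and lists were assigned from general knowledge, with earlier results of these data known, as were the members. GC content and length came from GENCODE M21 and promoters from RefSeq. The late fit was tested on simulated data, with changes placed in Late SAFit2 mice. The values were drawn from normal distributions without the floor at 0 reads, so the test does not cover genes of few reads. Plots used Python 3.11.15.

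Genes named are the 2 of highest level in each structure, the 5 of lowest p in each comparison, those past the adjusted late threshold and, of other lists, the 1 of highest level and the 1 of lowest p for the early minus late effect. Others are named to spell out counts, after their values were seen. Replicate numbers did not pair the mice: residual correlations within pairs ranged from -0.236 to 0.317, with 2 of 10 over 0.1. The markers Ttr and Kcne2 were not analysed here. One further marker list is not reported here.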

Additional observations from a re-analysis of the deposited data

Results flagged for a closer look

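In 5 of 112 groups of values 1 mouse lay far from the others of its group, where chance flags about 1 in 20. In Early SAFit2 mice these were replicate 5 for Cfap300 (3.10 log2 CPM, next 2.62), replicate 3 for Drc1 (1.60, next 2.34), and replicate 1 for Drc7 (-2.03, next -0.45) and Tekt4 (-3.15, next -1.43). Without that mouse the early change of Drc7 no longer passed a nominal p under 0.05. In Early Vehicle mice it was replicate 1 for Cfap52 (-2.25 log2 CPM, next 0.31).

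The early and the late effect of SAFit2 differed at a nominal p under 0.05 in limma in 5 genes, none of which passed adjustment. The early minus late effect on the log2 scale was -1.39 for Tekt4, -0.64 for Cfap69, -0.71 for Cfap36, -1.51 for Cfap43 and 1.65 for Cfap99. The call of Tekt4 was lost without Early SAFit2 mouse 1 or Late SAFit2 mouse 1, that of Cfap69 in 11 and that of Cfap99 in 4 of 22 fits with 1 mouse left out, and those of Cfap36 and Cfap43 in 0. Over the other alternatives the call was lost in 4 of 15 for Cfap69, 3 of 14 for Cfap99 and 2 of 14 for Tekt4.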

How the results depend on the processing

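The median effects kept their direction in every setting but not their size. The late median (-0.47) ran from -0.74 without Late Vehicle 1 to -0.29 without Late SAFit2 2 and was -0.29 and -0.20 with pseudocounts of 0.5 and 2, -0.27 with quantile normalization and -0.16 under a stricter filter (1 log2 CPM in 11 libraries). The early median (-0.67) became -0.28 with a pseudocount of 2 and -0.37 under the stricter filter, and the mean median (-0.56) -0.22 and -0.25. Of 1442 single-gene fits 1310 kept direction and call, 132 lost the call and 0 turned. The late count (3) became 16 at a nominal p, 12 with library quality weights, 1 under the stricter filter, and 0 without the variance trend, with quantile normalization, in the late mice alone, with GC and length trends removed, with that and the replicate block, with limma voom, and without both libraries with muscle RNA. In the late mice alone and with GC and length trends removed, no gene of all tested passed (lowest adjusted p in limma of 0.0687 and 0.0918). The early count (18) became 0 on adjustment, 8 under the stricter filter and 28 with quality weights, 4 of which passed adjustment. The mean count (28) became 0 on adjustment, 34 with quality weights, 28 of which passed adjustment, and 11 under the stricter filter, which tests 29 of the genes. The early minus late count (5) became 0 on adjustment, 3 under the stricter filter, 11 with quality weights, 6 of which passed adjustment, and 3 with GC and length trends removed. With the replicate block, added although the numbers do not pair the mice, it was 8 and the late count 4. Quality weights raised nominal calls over all genes as well, to 25.8% lower late, 4.76% early, 20.7% for the mean and 19% for early minus late. The causes were not tested.

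Leaving out 1 mouse gave 13 to 22 early, 23 to 33 mean, 0 to 6 late and 3 to 9 early minus late calls. The late count was 0 without Late Vehicle 1, 3, 4 or 5, Late SAFit2 2, 4 or 5, or Early SAFit2 4, it was 1 without Early Vehicle 2, 3 or 6 or Early SAFit2 5, it was 5 without Early Vehicle 1 or Late Vehicle 6, and 6 without Late Vehicle 2. The early minus late count was 3 without Early SAFit2 3 or Late SAFit2 4, 8 without Early Vehicle 1 and 9 without Late Vehicle 6. The early call of Tekt1 was lost without Early SAFit2 3 or Early Vehicle 4 or 6, and that of Drc7 without Early SAFit2 1 or Early Vehicle 4. Depth limits the 24 genes with a median under 20 reads.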
